A study of Homo sapiens with 9 samples.

Results

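The replication-dependent histone genes encode the histones that package newly made DNA. Members were the probe sets with 1 annotated gene symbol that begins with H2AC, H2BC, H3C or H4C and a number, or that is one of H1-1 to H1-6. Of 22011 probe sets, 50 met this rule, each with a different symbol: 6 for the linker histone H1, 11 for H2A, 13 for H2B, 9 for H3 and 11 for H4. According to RefSeq, 45 of these genes lie on chromosome 6, 4 on chromosome 1 and 1 on chromosome 12. Another 5 probe sets carried symbols of several histone genes and were not counted as members.

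Cells of the human kidney-derived line HEK293 received a stealth siRNA against DBC1 (siDBC1), against ZNF326 (siZNF326) or a control siRNA (siCTR), and RNA was taken 48 h later. Each group has 3 arrays, and the design text describes the experiments as independent. DBC1 is the protein encoded by CCAR2. ZNF326 (ZIRD), a protein with zinc fingers, is its partner in the DBIRD complex, whose part in gene expression and splicing the study addressed. Every group was transfected, the controls included.

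Messenger RNAs of these genes are unusual in ending in a conserved stem-loop instead of a poly(A) tail. The stem-loop binding protein SLBP holds that end from processing to translation, and the transcripts build up in S phase and are degraded when DNA synthesis stops. The genes have no introns, and most stand in clusters where an H2A and an H2B gene often start back to back from a shared promoter. H2A, H2B, H3 and H4 form the core of the nucleosome and H1 binds the DNA that links nucleosomes. The arrays were hybridised with material made from total RNA after removal of ribosomal RNA, per the labels. Copies within a class can have similar coding sequences, so a probe set may also read close copies of its gene, and to what extent was not analysed here.

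CCAR2 read 6.50, 6.54 and 6.65 in siDBC1, against 7.67, 7.67 and 7.84 in siCTR, on the log2 scale of the deposited values. It fell in siDBC1, with a log2 difference of −1.16 (SE 0.079, limma adjusted p = 0.0116). ZNF326 read 6.12, 5.56 and 5.81 in siZNF326, against 5.25, 5.64 and 5.76 in siCTR, so its transcript was not lower there (difference 0.28, limma adjusted p = 0.851). The group is therefore called by its label, and each direction below refers to the arrays labelled siZNF326. Medians over all probe sets ran from 5.58 to 5.89 in siDBC1, from 5.76 to 5.90 in siZNF326 and from 5.67 to 5.78 in siCTR. The 4 measured haematopoietic, 4 fibroblast and 3 endothelial marker genes had median levels of 3.49 to 4.69 in every group. The 9 genes listed for the HEK293 line had medians of 8.15 to 8.52. They include KRT8, KRT18, VIM and CDH2 beside renal and neuronal genes. Single genes departed from these medians. PAX2 had group means of 5.99 to 6.01 and LHX1 of 5.90 to 6.11, below the fibroblast gene COL1A1 at 6.47 to 6.68.

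Promoters of 45 member genes were in the RefSeq table, and the 5 shown here belong to genes on which the results below turn. H3C10 had the lowest values relative to siCTR, and H1-3 and H4C4 stood higher. H2AC8 and H2AC11 each share their start region with an H2B gene whose difference in siZNF326 went the other way. Each sequence gives the 250 bases before the annotated start, 5′ to 3′ on the strand of the gene, in build GRCh38.p14. Capitals mark the letters TATAAA (the TATA box), CCAAT (the box bound by NF-Y), ATTTGCAT (the octamer bound by OCT1) and AAACACAA (the H1 box), or their reverse complements.
H3C10 (chr6:27809801-27810050, plus strand): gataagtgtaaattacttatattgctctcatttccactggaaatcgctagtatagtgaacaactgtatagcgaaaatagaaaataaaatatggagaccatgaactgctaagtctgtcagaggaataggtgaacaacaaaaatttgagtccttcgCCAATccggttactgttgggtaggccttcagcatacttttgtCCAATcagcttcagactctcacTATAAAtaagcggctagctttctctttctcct
H1-3 (chr6:26234988-26235237, minus strand): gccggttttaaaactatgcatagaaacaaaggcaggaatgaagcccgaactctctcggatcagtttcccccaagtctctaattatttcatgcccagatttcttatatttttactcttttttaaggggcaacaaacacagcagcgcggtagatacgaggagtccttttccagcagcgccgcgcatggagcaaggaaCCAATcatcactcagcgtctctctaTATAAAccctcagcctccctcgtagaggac
H4C4 (chr6:26189113-26189362, minus strand): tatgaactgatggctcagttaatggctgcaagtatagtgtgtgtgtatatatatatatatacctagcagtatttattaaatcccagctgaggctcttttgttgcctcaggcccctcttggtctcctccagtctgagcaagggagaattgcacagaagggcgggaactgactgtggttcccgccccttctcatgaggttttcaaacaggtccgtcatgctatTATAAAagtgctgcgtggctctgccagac
H2AC8 (chr6:26216671-26216920, plus strand): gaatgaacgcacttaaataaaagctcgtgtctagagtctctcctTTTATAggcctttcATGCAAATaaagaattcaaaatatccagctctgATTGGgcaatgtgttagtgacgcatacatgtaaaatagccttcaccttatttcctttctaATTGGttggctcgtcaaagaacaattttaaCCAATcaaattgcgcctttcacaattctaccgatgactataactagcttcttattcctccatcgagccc
H2AC11 (chr6:27132793-27133042, plus strand): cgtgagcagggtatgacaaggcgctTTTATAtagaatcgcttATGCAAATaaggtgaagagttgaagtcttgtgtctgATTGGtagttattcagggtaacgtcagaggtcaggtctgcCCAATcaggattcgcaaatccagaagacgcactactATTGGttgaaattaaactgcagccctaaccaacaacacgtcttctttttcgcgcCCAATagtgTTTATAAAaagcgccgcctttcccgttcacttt
In H3C10, H1-3, H4C4 and H2AC11 the letters TATAAA begin 29 to 32 bases before the start. The H2AC8 window holds TTTATA, the reverse complement, 206 bases before the start, toward its partner H2BC8. In H2AC11 the runs TATAAA and TTTATA overlap in 1 stretch. H4C4 has no CCAAT in its window.

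The classes differ in these letters. Searched on both strands, TATAAA was present in 29 of 45 member promoters (64.4%) and in 11.1% of 27305 promoters of the same length, 1 per gene. CCAAT was present in 39 of 45 (86.7%) and in 33% of all promoters, and the H4 genes had it in 3 of 9. ATTTGCAT occurred in 8 of 10 H2A and 10 of 13 H2B promoters, in 1.66% of all promoters and in none of the H1, H3 and H4 promoters searched. Back-to-back H2A and H2B genes share 1 stretch of DNA, so these counts are not independent. AAACACAA was found in 4 of 6 H1 promoters, in 1.34% of all promoters and in none of the other members. H1-3 was 1 of the 2 H1 genes without these exact letters. A match is a run of letters and no measurement of binding.

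In siDBC1, most histone probe sets had means slightly below siCTR, and all 11 of H2A did. The mean of 34 of 50 members was below siCTR (68%), against 46.1% of all probe sets, with a median log2 difference of −0.11, against 0.01 over all probe sets. No single member passed the test. Limma called 0 of 50 members at an adjusted p below 0.05, where 0.0363% of all probe sets were called. The smallest adjusted p among members was 0.423, that of H2AC6. At an unadjusted p below 0.05 there were 10 members, where 6.18% of all probe sets lay. Of these 9 were lower, against 2.55% of all probe sets, and 1 was higher, against 3.63%. The arrays of siDBC1 and siCTR did not overlap for 12 members (24%), where 8.84% of all probe sets did not. Of these 11 were lower, where 3.66% of all probe sets were, and 1 was higher, where 5.18% were. In RNA from whole cultures, fewer cells in S phase and less histone RNA per cell cannot be told apart, and the share of cells in S phase was not measured.

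In the arrays labelled siZNF326, 31 of 50 members had a mean below siCTR (62%), against 43.2% of all probe sets. The median log2 difference of the members was −0.08, against 0.03 over all probe sets. It was −0.13 after quantile normalization and −0.17 with arrays centred on their medians, where all probe sets stood at −0.04 and −0.06. Limma called 0 members, where 0.15% of all probe sets were called, and the smallest adjusted p among members was 0.258, that of H2AC15. In this comparison 10 members lay at an unadjusted p below 0.05, where 8.65% of all probe sets did. Of these 8 were lower, against 2.52% of all probe sets, and 2 were higher, against 6.13%. The arrays did not overlap for 13 members (26%), where 18.2% of all probe sets did not. In 8 of them siZNF326 was lower, as in 5.27% of all probe sets, and in 5 it was higher, as in 12.9%. Both comparisons use the same 3 siCTR arrays, so similar values in them are not separate observations.

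**Figure D1:**
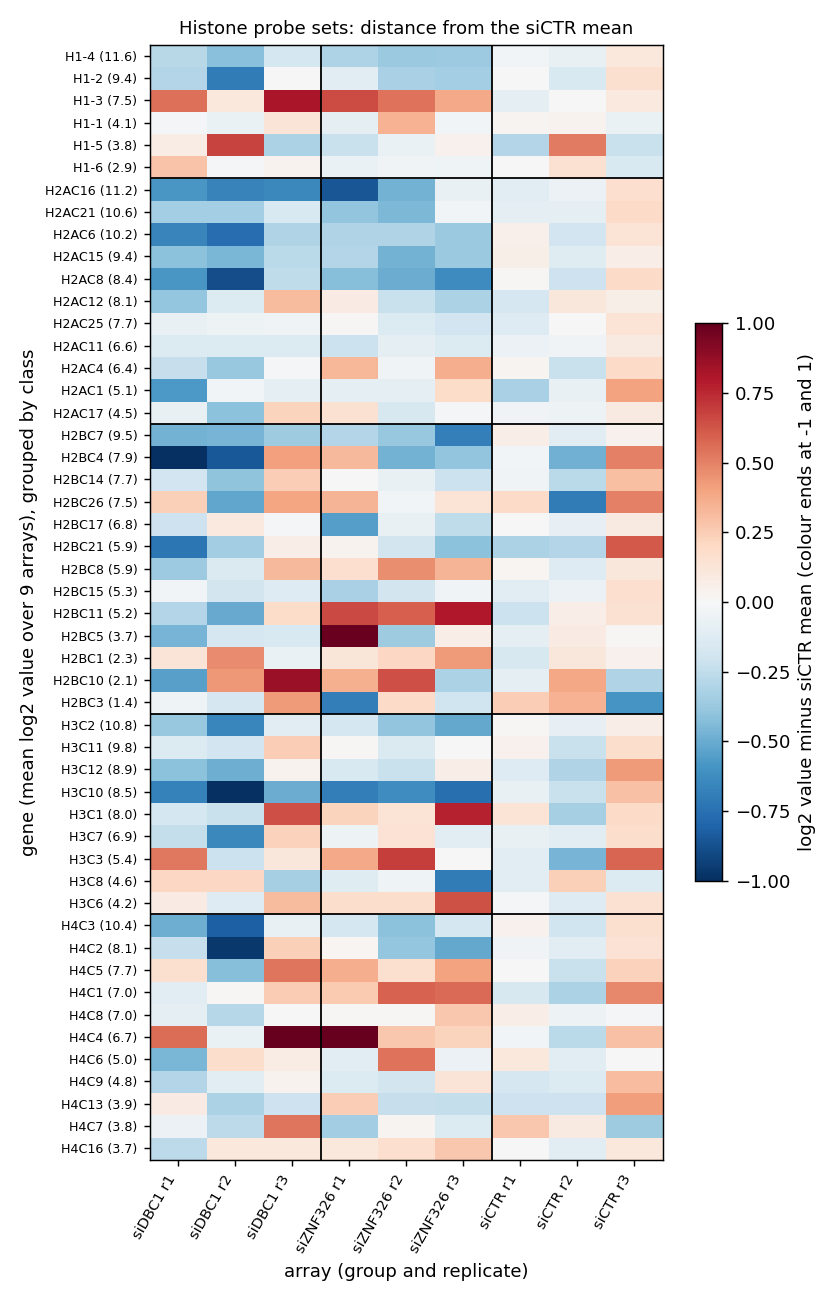
Distance of each of the 50 histone probe sets (rows, grouped by class and ordered by mean log2 value, given in brackets) from its siCTR mean on each of the 9 arrays (columns). Blue is lower and red higher on the log2 scale, with colours ending at −1 and 1. The upper rows of the H2A class are blue across siDBC1 and siZNF326, while H1-3 is red on all 6 of these arrays.

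Among H2A genes, H2AC16 read 10.99, 10.91 and 10.93 in siDBC1 and 10.72, 11.11 and 11.50 in siZNF326, against 11.47, 11.52 and 11.74 in siCTR. All 3 siDBC1 arrays were below every siCTR array, while 1 of the siZNF326 arrays lay inside the siCTR range. The log2 differences from siCTR were −0.63 in siDBC1 (SE 0.18, limma adjusted p = 0.575) and −0.47 in siZNF326 (adjusted p = 0.530), where it was −0.27 without siZNF326 replicate 1. H2AC8 read 8.15, 7.85 and 8.48 in siDBC1 and 8.30, 8.23 and 8.10 in siZNF326, against 8.74, 8.52 and 8.93 in siCTR, and neither group overlapped siCTR. It was 1.49-fold lower in siDBC1, a difference of −0.57 (SE 0.17, limma adjusted p = 0.599), and 1.43-fold lower in siZNF326, at −0.52 (limma adjusted p = 0.433). After quantile normalization of the arrays its difference in siZNF326 was −0.64 and passed (limma adjusted p = 0.033).

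H2AC6 is known for giving polyadenylated transcripts in addition to the stem-loop form. It read 9.80, 9.69 and 10.15 in siDBC1 and 10.15, 10.15 and 10.08 in siZNF326, against 10.51, 10.26 and 10.60 in siCTR. Its differences were −0.57 (SE 0.14, limma adjusted p = 0.423) and −0.33 (adjusted p = 0.565), with 6 of 6 arrays below the lowest siCTR array. H2AC15 read 9.21, 9.17 and 9.35 in siDBC1 and 9.33, 9.15 and 9.25 in siZNF326, against 9.68, 9.50 and 9.69 in siCTR. This was a difference of −0.38 in each comparison (SE 0.09, 1.30-fold lower, limma adjusted p = 0.425 and 0.258), with a 95% interval from −0.59 to −0.17 in both. Over the 11 H2A members the median difference was −0.23 in siDBC1, with 11 of 11 below siCTR, and −0.15 in siZNF326, with 9 of 11 below. The 6 H2A members whose siDBC1 arrays did not overlap siCTR were H2AC6, H2AC8, H2AC11, H2AC15, H2AC16 and H2AC21. They were 54.5% of the class and all were lower, as were 3.66% of all probe sets.

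H2B genes were more divided. H2BC7 read 9.30, 9.30 and 9.42 in siDBC1 and 9.47, 9.39 and 9.09 in siZNF326, against 9.83, 9.66 and 9.81 in siCTR. All 6 siRNA arrays lay below the siCTR arrays, 1.35-fold in siDBC1 (−0.43, SE 0.11, limma adjusted p = 0.491) and 1.37-fold in siZNF326 (−0.45, limma adjusted p = 0.275). H2BC11 read 4.72, 4.52 and 5.20 in siDBC1 and 5.68, 5.62 and 5.82 in siZNF326, against 4.80, 5.08 and 5.17 in siCTR. Its siZNF326 arrays stood above all 6 others, by 0.69 over siCTR (SE 0.18, 1.61-fold, limma adjusted p = 0.311), and its siDBC1 arrays overlapped siCTR. H2BC4 had the largest SD over the 9 arrays among H2B members, at 6.52, 7.29 and 8.55 in siDBC1 and 8.47, 7.67 and 7.75 in siZNF326, against 8.12, 7.67 and 8.65 in siCTR. Its difference of −0.69 in siDBC1 had a 95% interval from −1.88 to 0.50 (limma adjusted p = 0.955), and it lay between −1.24 and −0.22 over the alternative settings, single arrays left out included. The median over the 13 H2B members was −0.11 in siDBC1, with 9 below siCTR, and −0.10 in siZNF326, with 7 below. Single arrays moved it from −0.25 (without siDBC1 replicate 3) to −0.03 (without siCTR replicate 3) in siDBC1. In siZNF326 it ran from −0.20 (without siCTR replicate 2) to 0.08 (without siCTR replicate 3), and it was −0.23 after quantile normalization and −0.19 with arrays centred.

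Among H3 genes, H3C10 had the lowest difference of all 50 members in both comparisons with siCTR. It read 8.34, 7.89 and 8.51 in siDBC1 and 8.32, 8.40 and 8.26 in siZNF326, against 8.94, 8.79 and 9.31 in siCTR, without overlap. The log2 difference was −0.77 in siDBC1 (SE 0.19, 95% interval −1.20 to −0.33, limma adjusted p = 0.425) or 1.70-fold lower, and −0.69 in siZNF326 (95% interval −1.12 to −0.26, adjusted p = 0.314) or 1.61-fold lower. After quantile normalization the siZNF326 difference was −0.80 and passed (limma adjusted p = 0.037). H3C2, the H3 member with the highest mean, read 10.62, 10.35 and 10.89 in siDBC1 and 10.83, 10.61 and 10.49 in siZNF326, against 11.02, 10.92 and 11.07 in siCTR. The groups did not overlap siCTR, at −0.38 and −0.36 (limma adjusted p = 0.777 and 0.562). H3C11, which encodes the same class of protein from the same chromosome, differed by −0.03 and −0.04, with 95% intervals from −0.37 to 0.32 and from −0.38 to 0.30. The medians over the 9 H3 members were −0.03 in siDBC1 and −0.04 in siZNF326. In siDBC1 the H3 median was −0.20 without siDBC1 replicate 3 and −0.14 without siCTR replicate 2. In siZNF326 it was −0.15 after quantile normalization, −0.13 with arrays centred, −0.15 without siCTR replicate 2 and 0.08 without siCTR replicate 3.

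H4 genes had higher and lower means than siCTR. H4C3 read 10.18, 9.85 and 10.59 in siDBC1 and 10.49, 10.26 and 10.49 in siZNF326, against 10.71, 10.46 and 10.83 in siCTR, with 1 siDBC1 array and 2 siZNF326 arrays inside the siCTR range. Its differences were −0.46 (SE 0.19, limma adjusted p = 0.793) and −0.25 (adjusted p = 0.732), the −0.46 becoming −0.28 without siDBC1 replicate 2. H4C4 read 6.95, 6.32 and 7.58 in siDBC1 and 7.41, 6.66 and 6.61 in siZNF326, against 6.36, 6.12 and 6.68 in siCTR. Its mean was higher by 0.56 and 0.51, with an SE of 0.35 and arrays that overlapped siCTR in both groups (limma adjusted p = 0.928 and 0.710). In siDBC1 it was 0.25 without siDBC1 replicate 3 and 0.88 without siDBC1 replicate 2, and in siZNF326 it was 0.25 without siZNF326 replicate 1. H4C1 read 6.74, 6.86 and 7.10 in siDBC1 and 7.11, 7.43 and 7.41 in siZNF326, against 6.69, 6.53 and 7.32 in siCTR, a difference of 0.47 in siZNF326 (limma adjusted p = 0.591) that was 0.31 without siCTR replicate 2 and 0.71 without siCTR replicate 3. The H4 median was −0.07 in siDBC1 and 0.10 in siZNF326, and its direction depended on the setting. In siDBC1 it was 0.05 without siDBC1 replicate 1, 0.03 without siCTR replicate 3 and −0.14 without siDBC1 replicate 3. In siZNF326 it was −0.05 after quantile normalization and 0.01 with arrays centred. Of the 11 H4 members, 0 were free of overlap with siCTR in either comparison, where 8.84% (siDBC1) and 18.2% (siZNF326) of all probe sets were.

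The linker histones stood on both sides of siCTR. H1-4, the H1 member with the highest mean, read 11.51, 11.37 and 11.61 in siDBC1 and 11.47, 11.41 and 11.42 in siZNF326, against 11.76, 11.71 and 11.89 in siCTR. All 6 arrays were below siCTR. The difference was −0.29 in siDBC1 (SE 0.09, 1.22-fold lower, limma adjusted p = 0.604) and −0.35 in siZNF326 (1.27-fold lower, limma adjusted p = 0.275). H1-3 read 7.67, 7.22 and 7.93 in siDBC1 and 7.76, 7.65 and 7.49 in siZNF326, against 7.02, 7.11 and 7.21 in siCTR. All 6 arrays were above siCTR. The difference was 0.49 in siDBC1 (SE 0.18, 95% interval 0.08 to 0.90, 1.40-fold higher, limma adjusted p = 0.729) and 0.52 in siZNF326 (95% interval 0.12 to 0.93, 1.44-fold higher, limma adjusted p = 0.435). H1-3 was the single member of 50 above siCTR without overlap in siDBC1, where 5.18% of all probe sets were. In siZNF326 the 5 such members of 50 were H1-3, H2BC1, H2BC8, H2BC11 and H3C6, where 12.9% of all probe sets were. H1-5 read 3.84, 4.44 and 3.45 in siDBC1, 3.54, 3.70 and 3.80 in siZNF326 and 3.47, 4.28 and 3.54 in siCTR, the widest spread among H1 genes. H1-6, the testis form of H1, read between 2.77 and 3.21 on all 9 arrays, below the lower quartile of every array.

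**Figure D2:**
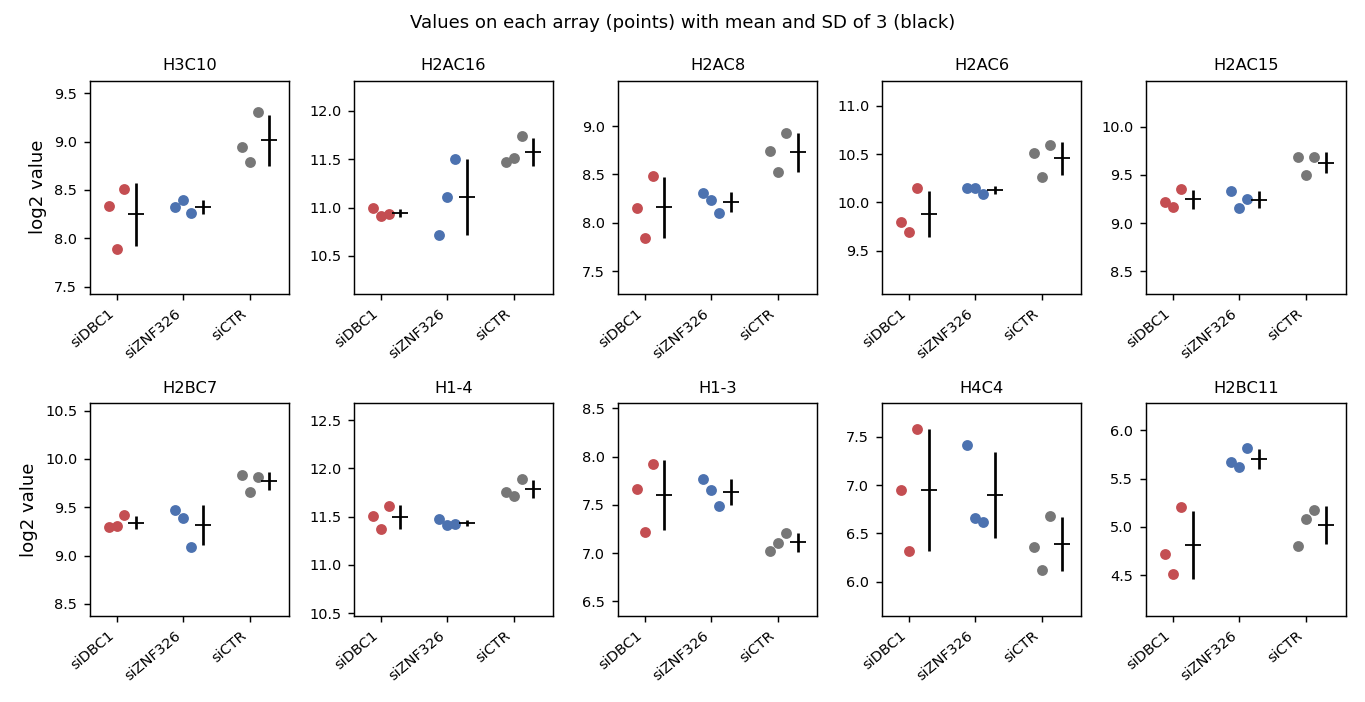
Log2 values of 10 histone probe sets on each array (points) in siDBC1, siZNF326 and siCTR, with the mean and SD of 3 arrays in black. Each vertical axis spans the same width on the log2 scale. The points of H3C10, H2AC8, H2AC6, H2AC15, H2BC7 and H1-4 lie below siCTR in both siRNA groups, those of H1-3 lie above it, and those of H2BC11 lie above it in siZNF326.

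On the deposited scale the shift differed between arrays. Taken as the median distance of the 50 members from their siCTR means, the siDBC1 arrays stood at −0.23, −0.24 and 0.03, the siZNF326 arrays at −0.03, −0.08 and −0.05, and the siCTR arrays at −0.03, −0.11 and 0.15. All probe sets had medians of 0.01, −0.06 and 0.09 in siDBC1, 0.08, 0.02 and 0.00 in siZNF326 and −0.04, −0.02 and 0.06 in siCTR. Replicate 3 was the highest of its group in siDBC1 and in siCTR, for the histones and for the whole table. The 5503 probe sets in the top 25% by mean had medians of 0.02, −0.25 and 0.22 in siDBC1. The 24 members among them stood lower on each of these arrays, at −0.32, −0.46 and 0.001. After quantile normalization the histone medians were −0.24, −0.13 and −0.09 in siDBC1 and −0.17, −0.14 and −0.08 in siZNF326, against −0.01, −0.09 and 0.10 in siCTR. With arrays centred they were −0.24, −0.10 and −0.13 in siDBC1 and −0.21, −0.13 and −0.09 in siZNF326, against 0.01, −0.09 and 0.09 in siCTR. All 6 siRNA arrays were thus below 0 on both of these scales, while siDBC1 replicate 3 was above 0 as deposited. Of the 50 members, 21 had their highest value on siCTR replicate 3 and 17 had their lowest on siDBC1 replicate 2. Without siCTR replicate 3 the median difference of the members was −0.04 in siDBC1 and 0.05 in siZNF326, with 31 and 22 of 50 members below siCTR. In siDBC1, dropping an array of that group gave −0.07 (replicate 1), −0.06 (replicate 2) and −0.20 (replicate 3). In siZNF326 it was −0.13 without siCTR replicate 1.

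As deposited, H2A was the class whose median lay below the siCTR mean on each of the 6 siRNA arrays. This was not particular to H2A on other scales, since H2B and H3 after quantile normalization, and H3 with arrays centred, were below 0 on all 6 as well. H2A stood at −0.39, −0.38 and −0.13 in siDBC1 and at −0.21, −0.22 and −0.13 in siZNF326, against −0.06, −0.08 and 0.14 in siCTR. The −0.13 on replicate 3 of both siRNA groups is the distance of H2AC11, which had the same value on both arrays. H2B stood at −0.30, −0.18 and 0.18 in siDBC1, H3 at −0.18, −0.22 and 0.11, and H4 at −0.11, −0.26 and 0.10, each overlapping its own siCTR arrays. With each array omitted in turn, the H2A median difference lay from −0.32 to −0.11 in siDBC1, lowest without siCTR replicate 1 and nearest to 0 without siCTR replicate 3. In siZNF326 it ran from −0.24 to −0.12, with −0.24 without siCTR replicate 1 and without siZNF326 replicate 1. No test was made between classes. The classes also differed in level, with 7 of the 11 H2A members in the top 25% by mean and 0 in the lowest 25%. The lowest 25% held 4 H2B, 3 H4 and 3 H1 members. Of members in the top 25%, 7 of 7 H2A, 3 of 4 H2B, 4 of 5 H3, 3 of 5 H4 and 2 of 3 H1 lay below siCTR in siDBC1. In siZNF326 these were 7, 3, 4, 2 and 2 in the same order. Class and level were not separated here.

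**Figure D3:**
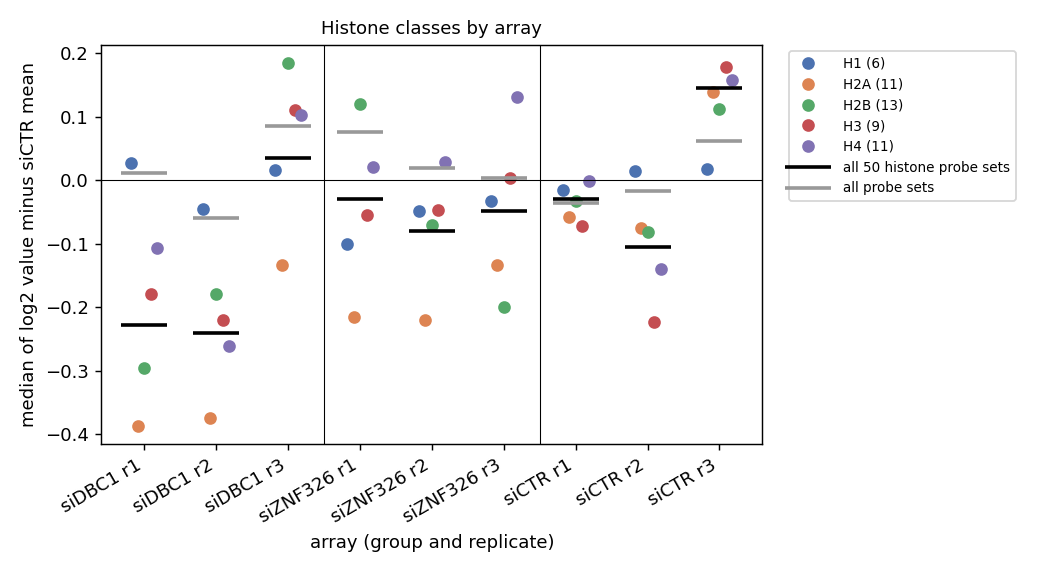
Median distance from the siCTR mean (log2) of each histone class on each of the 9 arrays, with the number of probe sets per class in the legend. Black bars are the median of all 50 histone probe sets and grey bars that of all probe sets. The H2A points lie below 0 on all 6 siDBC1 and siZNF326 arrays.

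Members were also split by the mean of their probe set over the 9 arrays, in steps of 25% of the table, a split chosen after the values were seen. The top step held 24 of the 50 members and 19 of the 34 that were below siCTR in siDBC1. Of these 24, 19 lay below siCTR in siDBC1 (79.2%), with a median of −0.29, against 50.2% and a median of −0.00166 for all 5503 probe sets there. In siZNF326, 18 of the 24 lay below siCTR (75%), with a median of −0.22, against 34.6% and 0.10 for all probe sets there. The 5 exceptions in siDBC1 were H1-3, H2BC26, H3C1, H4C1 and H4C5. In the step below the top, 6 of 7 members lay below siCTR in siDBC1 (85.7%) and 4 of 7 in siZNF326, with medians of −0.13 and −0.01. In the next step 6 of 9 and 4 of 9 lay below, with medians of −0.09 and 0.00. Lower means in siDBC1 were thus not limited to the top step. The 10 members in the lowest 25% had medians of 0.07 in siDBC1 and 0.01 in siZNF326, against 0.01 and −0.01 for all probe sets there. The median of the 24 was −0.17 in siDBC1 without siDBC1 replicate 2, and −0.15 in siZNF326 both without siCTR replicate 3 and without siZNF326 replicate 2. It was −0.33 in siZNF326 without siCTR replicate 2. After quantile normalization it was −0.30 in each comparison. The values carry no measure of background, so whether members near the lower end of the scale, such as H2BC3 with a mean of 1.40, were detected is not known.

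**Figure D4:**
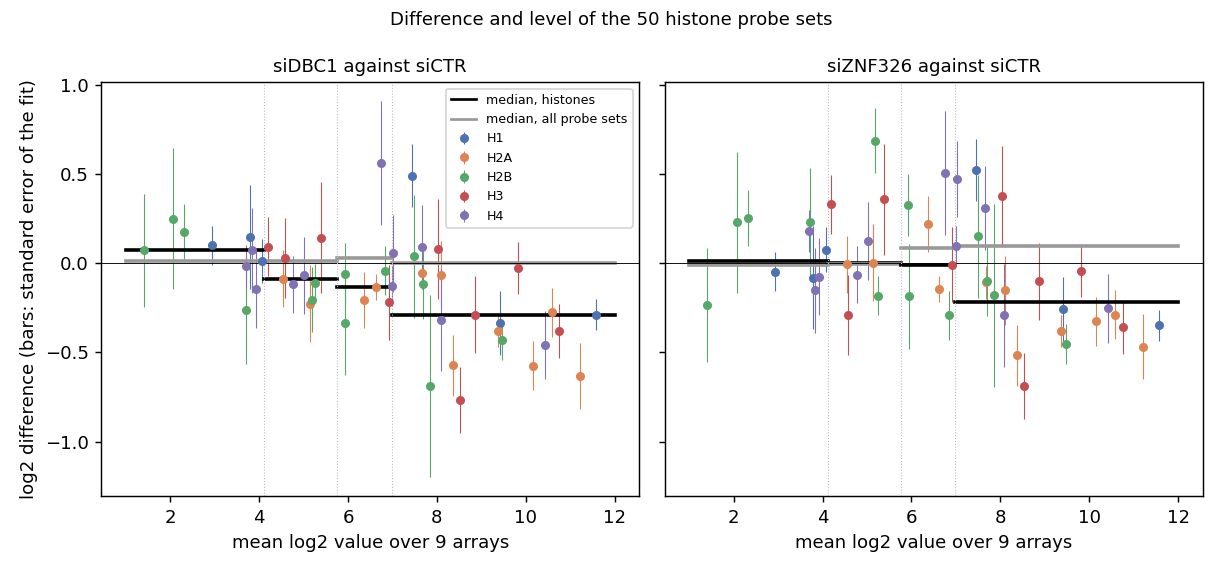
Log2 difference from siCTR (vertical, bars are the standard error of the fit) against mean log2 value over 9 arrays (horizontal) for the 50 histone probe sets in siDBC1 (left) and siZNF326 (right), coloured by class. Dotted lines part the table into steps of 25% by mean value, and horizontal bars give the median of the histones (black) and of all probe sets (grey) in each step. In the highest step the black bar lies at −0.29 and −0.22.

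Partners that start back to back had unlike differences in some pairs, though the difference between partners was not tested. In RefSeq, 11 pairs of an H2A and an H2B gene start on opposite strands 194 to 248 bases apart, and both genes were members in 7 pairs. H2AC8 and H2BC8 share 233 bases, shown above before the start of H2AC8. H2AC8 differed from siCTR by −0.57 in siDBC1 and −0.52 in siZNF326, whereas H2BC8 differed by −0.06 and 0.33. H2BC8 read 6.02, 6.31 and 6.19 in siZNF326, against 5.86, 5.72 and 5.96 in siCTR, above all siCTR arrays (limma adjusted p = 0.650). H2AC11 and H2BC11 start 248 bases apart. H2AC11 read 6.51, 6.63 and 6.59 in siZNF326, against 6.66, 6.69 and 6.81 in siCTR, all below, whereas the H2BC11 arrays given above were all higher. The siDBC1 arrays of H2AC11 held the same value, 6.59, on all 3. In siDBC1 both partners had means below siCTR, at −0.13 for H2AC11 and −0.20 for H2BC11. In the pair of H2AC6 and H2BC4 both means were lower, at −0.57 and −0.69 in siDBC1 and −0.33 and −0.18 in siZNF326. Both were also lower for H2AC15 and H2BC15, at −0.38 and −0.11 in siDBC1 and −0.38 and −0.18 in siZNF326. H2AC17 and H2BC17 were at −0.09 and −0.04 in siDBC1 and −0.01 and −0.29 in siZNF326. H2AC25 and H2BC26 lay on opposite sides of 0, at −0.05 and 0.04 in siDBC1 and −0.11 and 0.15 in siZNF326. H2AC1 and H2BC1 were at −0.23 and 0.18 in siDBC1 and 0.003 and 0.25 in siZNF326.

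**Figure D5:**
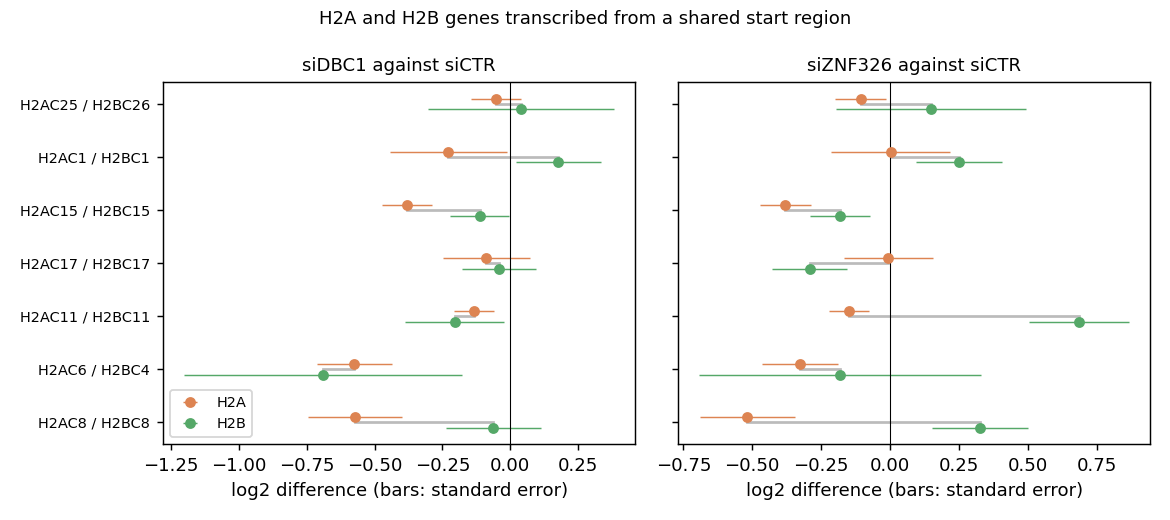
Log2 difference from siCTR, with the standard error of the fit, for the H2A (orange) and H2B (green) gene of 7 pairs that start back to back, in siDBC1 (left) and siZNF326 (right). The horizontal axes of the panels differ in range. In siZNF326 the partners H2AC8 and H2BC8, H2AC11 and H2BC11, and H2AC25 and H2BC26 lie on opposite sides of 0.

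Some of these genes also give polyadenylated transcripts, which are known from cells that leave the cycle or differentiate. Of 5 genes listed for this, 4 had a probe set of their own. In siDBC1 all 4 means were below siCTR, where 68% of all members and 46.1% of all probe sets lay. They were at −0.57 for H2AC6, −0.33 for H1-2, −0.33 for H2BC21 and −0.26 for H2BC5. In siZNF326 they were −0.33, −0.26, −0.19 and 0.23 in the same order, and none was called. H1-2 read 9.31, 8.91 and 9.61 in siDBC1 and 9.50, 9.28 and 9.27 in siZNF326, against 9.60, 9.45 and 9.77 in siCTR, with overlap in both comparisons. H2BC5 read 4.70 on siZNF326 replicate 1 and between 3.25 and 3.80 on the other 8 arrays. H2BC21 read 6.72 on siCTR replicate 3 and between 5.39 and 6.17 on the other 8. In both genes 1 array stood apart from the other 8. The fifth gene, H2BC12, shared its probe set with H2BC12L, which read 6.39, 4.23 and 6.49 in siDBC1 and 6.52, 4.33 and 5.22 in siZNF326, against 5.46, 4.79 and 5.17 in siCTR. The mean of that probe set was higher than siCTR, by 0.56 in siDBC1 and 0.22 in siZNF326 (limma adjusted p = 0.983 and 0.937).

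In siZNF326 against siDBC1, limma called 0 of 50 members, where 0.00909% of all probe sets were called, and 2 lay at an unadjusted p below 0.05, where 7.31% of all probe sets did. Both were higher, against 4.88% of all probe sets, and none was lower, against 2.43%. These were H2BC11, higher in siZNF326 by 0.89 (SE 0.18, 1.85-fold, limma adjusted p = 0.377), and H2AC4, higher by 0.42 (adjusted p = 0.658). The H2AC4 arrays read 6.69, 6.33 and 6.72 in siZNF326, against 6.13, 5.98 and 6.35 in siDBC1. The arrays did not overlap for 4 members (8%), where 9.45% of all probe sets did not. They comprised 3 that were higher in siZNF326 (H2BC11, H4C1 and H4C8), where 5.21% of all probe sets were, and 1 that was lower (H1-6), where 4.24% were. The differences of H2AC15, H2BC7 and H3C10 between the siRNA groups were −0.0003, −0.02 and 0.08, with 95% intervals from −0.21 to 0.21, from −0.29 to 0.24 and from −0.35 to 0.51. H2BC5 and H2BC4 differed by 0.50 and 0.51, and H3C8, H2BC3 and H2BC17 by −0.32, −0.31 and −0.25, all with overlap and with limma adjusted p from 0.735 to 0.822. The size of each of these 5 depended on single arrays, while its sign held with any 1 array left out. H2BC4 was at 0.04 without siDBC1 replicate 1 and 1.06 without siDBC1 replicate 3, and H2BC5 at 0.12 without siZNF326 replicate 1 and 0.79 without siZNF326 replicate 2. H3C8 ran from −0.50 (without siDBC1 replicate 3) to −0.11 (without siZNF326 replicate 3). H2BC3 ran from −0.52 (without siZNF326 replicate 2) to −0.08 (without siZNF326 replicate 1), and H2BC17 was at −0.12 without siZNF326 replicate 1.

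Genes that make, process and remove histone transcripts were also read from the same fit, and limma called 0 of them in any of the 3 comparisons. Of 17 measured genes for transcription and 3′ end processing, 10 lay below siCTR in siDBC1 (median −0.02) and 7 in siZNF326 (median 0.15), with 1 and 3 at an unadjusted p below 0.05, where 6.18% and 8.65% of all probe sets lay. SRRT, a partner of the nuclear cap-binding complex, read 7.83, 7.57 and 7.97 in siDBC1 and 8.08, 7.97 and 7.98 in siZNF326, against 7.42, 7.38 and 7.63 in siCTR. It differed by 0.31 (limma adjusted p = 0.765) and 0.54 (adjusted p = 0.217), with overlap in siDBC1 and none in siZNF326. NCBP2, the small cap-binding subunit, differed by −0.11 and 0.59 (limma adjusted p = 0.996 and 0.473). SLBP, chosen after its values were seen, differed by 0.06 and −0.05. Of 11 genes of histone mRNA decay, 4 and 3 lay below siCTR, with medians of 0.06 and 0.36. PNRC1, a partner of the decapping machinery, differed by 0.41 and 0.58 (limma adjusted p = 0.423 and 0.101), without overlap in either comparison.

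Replication-independent variants, which are made throughout the cell cycle from polyadenylated transcripts in most cases, had medians of −0.05 in siDBC1 and 0.08 in siZNF326 over 8 genes. H1-10, a linker variant, differed by −0.27 and −0.24 (limma adjusted p = 0.879 and 0.657). MACROH2A1 differed by 0.17 and 0.52 (limma adjusted p = 0.968 and 0.393) and H2AX, which gives both kinds of transcript, by 0.04 and −0.30 (limma adjusted p = 0.999 and 0.615). Of 11 further histone genes outside the rule, 4 were measured, with medians of 0.05 and −0.17. H2BW1 differed by −0.52 in siDBC1 (limma adjusted p = 0.955) and H3-4 by −0.28 in siZNF326 (limma adjusted p = 0.730). The 17 histone chaperone genes had medians of 0.08 and 0.19, with ASF1B at 0.12 and 0.46 (limma adjusted p = 0.984 and 0.487) and TONSL at 0.19 and −0.03 (limma adjusted p = 0.776 and 0.911). The difference of TONSL between siZNF326 and siDBC1 was −0.23, without overlap (limma adjusted p = 0.645). The 20 genes of S phase and replication had medians of −0.09 and 0.09, with 13 and 9 below siCTR. CDT1, which licenses replication origins, read 7.90, 7.86 and 7.73 in siZNF326, against 8.25, 8.40 and 8.55 in siCTR, a difference of −0.57 (limma adjusted p = 0.106). In siDBC1 the mean of CDT1 was also below siCTR, at −0.20 (limma adjusted p = 0.882). CCNE2, a cyclin of the entry into S phase, had differences of 0.63 in siDBC1 and 1.14 in siZNF326 (limma adjusted p = 0.948 and 0.526), and CCNE1 of 0.66 and 0.51 (adjusted p = 0.669 and 0.565).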

How the data were processed

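Total RNA was profiled on Affymetrix whole-transcript arrays, 9 in all, 3 per siRNA. The authors deposited log2 values from RMA, per the submitters' processing notes, which also name build hg18. The log base was taken from RMA and the range of the values (0.333 to 13.4). The sources used here state no RMA version or filter. The authors' table has 22011 probe sets, named from the platform annotation, of which 14432 carry 1 symbol. All 50 members matched the current RefSeq gene table by gene identifier, and 0 symbols changed.

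All 9 arrays entered 1 limma fit (version 3.58.1, R 4.3.3) with a coefficient per group, without filter or rescaling, so all 50 members were tested. Two-sided moderated tests were adjusted by Benjamini and Hochberg over all probe sets of a comparison, with a call at an adjusted p below 0.05. Arrays of a pair of groups were counted as not overlapping where the lowest of one group exceeded the highest of the other. The fit was tested on simulated data. Named members were those called, the smallest p per class and comparison, the 3 highest and 3 lowest differences, the highest mean and largest SD per class, and genes with known polyadenylated forms. In each related list the gene with the smallest p against siCTR is named, with others from the 3 smallest in a comparison. Members outside this rule were chosen after their values were seen. The members and lists were chosen with earlier results of these data known. Whether replicates were separate cultures rests on the design text, and p-values measure the spread between these arrays. Alternatives were quantile normalization, median centring, a replicate block, 2 groups alone, another variance moderation, a filter on low values, other member choices and leaving out each array.

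Same-numbered arrays of different groups had deviations that correlated between −0.296 and 0.395, so the numbers were not treated as pairs. Promoters are RefSeq sequences on GRCh38.p14.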

Additional observations from a re-analysis of the deposited data

How the results depend on the processing

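The 50 members held 0 calls in siDBC1 against siCTR and in siZNF326 against siDBC1 under each alternative run, and in siZNF326 against siCTR under each except quantile normalization, which gave 2 (H2AC8 and H3C10). With a replicate block the calls over all probe sets were 0 for siDBC1 against siCTR, 1 for siZNF326 against siCTR and 0 for siZNF326 against siDBC1, and 0 members were called. Same-numbered arrays of siDBC1 and siCTR had deviations that correlated at 0.02, 0.19 and 0.25, while the other pairs of groups had both signs. Whether the numbers pair the arrays is thus not settled. Calls over all probe sets were 8, 33 and 2 in the same order. They became 69, 196 and 28 after quantile normalization, 46, 119 and 9 with arrays centred on their medians, and 0, 5 and 0 with only the 2 groups compared, and 4 in siDBC1 against siCTR with trend and robust moderation. Leaving out 1 array gave 0 to 4, 1 to 64 and 0 to 1 calls. In siZNF326 against siCTR the 64 came without siDBC1 replicate 2, 26 were called without siDBC1 replicate 3, and each of the other 7 omissions gave 1 to 3. Where these counts were 0, limma's unadjusted p was below 0.05 for 1360 and 1769 probe sets with the replicate block, and for 1100 and 1118 with only the 2 groups compared, in siDBC1 against siCTR and siZNF326 against siDBC1. Leaving out 1 array moved the median difference of the members between −0.20 and −0.040 in siDBC1 against siCTR, between −0.13 and 0.050 in siZNF326 against siCTR, where it turned above 0 without siCTR replicate 3, and between −0.013 (without siDBC1 replicate 2) and 0.21 (without siDBC1 replicate 3) in siZNF326 against siDBC1. In that last comparison the median was 0.07, and −0.005 after centring. There 17 members lay below siDBC1, with 27 after centring and 10 to 27 when 1 array was left out. H2BC10, at 0.25 in siDBC1 against siCTR, was at −0.054 without siDBC1 replicate 3 and lay between −0.054 and 0.65 with single arrays left out. Medians of each class, and the differences of several named members, moved by over 1.5 times or turned sign under single settings. Only some of these moves are given beside them or here, and those of the class medians in siZNF326 against siDBC1 are not. The H1 median was 0.06 in siDBC1, −0.03 without siDBC1 replicate 2 and −0.29 with the lowest 25% filtered, which left 3 H1 members. In siZNF326 the H1 median was −0.06, with −0.26 under that filter and 0.06 without siCTR replicate 2. The H2A median in siZNF326 was −0.27 after quantile normalization and −0.24 with arrays centred. The causes of these changes were not tested. The lowest 25% filter left 40 members. Equal values on 2 or more arrays were found for 6 members and for 41.4% of all probe sets. No detection values were used, so low members may carry background only.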
